A study of Mus musculus with 5 samples.

Results

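The genes of cholesterol and fatty acid synthesis were followed across 5 mouse whole-transcript arrays, 2 of embryonic stem cells (ESCs) and 3 of embryonic fibroblasts (MEFs). The list holds 30 genes, named one by one, and 29 of them had a probe set assigned to 1 gene, out of 19938 genes measured in this way. Expression of Acat2, the cytosolic thiolase at the head of the pathway, was not analysed here, and only its promoter window was read. Each group had 1 array. The labels name 2 kinds of ESCs, 2i and S, and 3 of MEFs, which are 4n 2i MEFs, also 2n 2i MEFs, and control MEFs. All were on an F1 background of the strains 129X1/SvJ and MSM/Ms. By its title the study derived female ESCs that keep DNA methylation inherited from the gametes. The label 2i usually names a medium with inhibitors of the kinases MEK and GSK3, while the labels leave S, 2n and 4n unexplained, and these serve here as names. The labels give no culture medium, passage, age of embryo or number of cultures. Sample titles carry the number 15 for 2i ESCs and for 2n 2i MEFs, 36 for S ESCs, 2 for 4n 2i MEFs and 4 for control MEFs, so each pair of arrays but the one numbered 15 differs in that number as well.

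Cells build cholesterol from acetyl-CoA. The mevalonate pathway makes isoprenoid units that are joined into squalene, and squalene is cyclised to lanosterol, which loses methyl groups and shifts or gains double bonds until it becomes cholesterol. Fatty acid synthesis starts from the same acetyl-CoA and yields palmitate, which is lengthened and desaturated. Transcription factors of the SREBP family, encoded by Srebf1 and Srebf2, switch on both sets of genes. They stay in the endoplasmic reticulum with the escort protein Scap and the anchor proteins Insig1 and Insig2 while sterols are plentiful, and are cleaved and move to the nucleus when sterols run low. Proliferating cells in culture need these lipids for new membranes and take up part of them from serum.

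All 29 measured genes lay at or above the floor on every array, so no low-value filter selected among them. The floor is the median intensity of the probe sets that carry a gene name, between 217.9 and 240.1 intensity units. Differences below are of log2(intensity + 1). With 1 array a group, pairs of arrays have differences but no test, and the number of arrays limits the precision. Many deposited values are identical between MEF arrays (37.4% to 45.4% of probe sets in each pair). Among the synthesis genes this touched Idi1 and Ebp on the 2n and control MEF arrays and Dhcr7 and Srebf1 on the 4n and 2n MEF arrays, and such a difference of exactly 0 is not read as measured equality. Markers bore out the cell type labels. In limma 12 of 12 pluripotency markers were called higher and 12 of 12 measured fibroblast markers lower in ESCs than in MEFs. Over all genes 16.6% were called higher and 16.2% lower. Klf2 was the only pluripotency marker past the floor in MEFs, so the rest entered the test only through the ESC arrays. Fibroblast markers past it numbered 4 in 2i ESCs and 7 in S ESCs, against 12 on each MEF array, so some entered only through MEFs. Macrophage markers stood apart on the 4n MEF array, where 9 of 12 reached the floor and their summed intensity was 21841 units, against 1 or 2 of 12 and sums of 1333 to 2318 on each of the other arrays. Ptprc, Cd14 and Aif1 were under the floor everywhere.

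**Figure D1:**
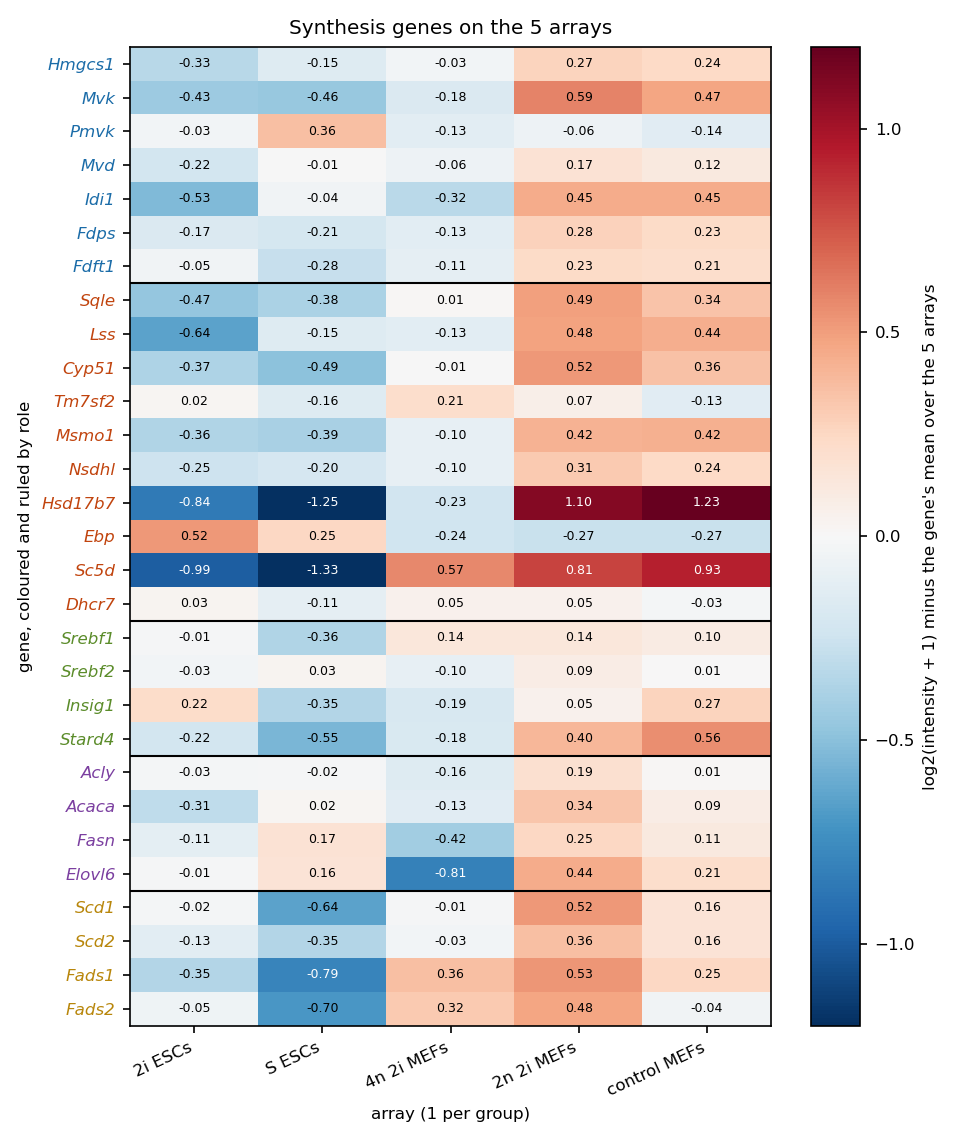
Each row is 1 synthesis gene and each column 1 array, and the colour and printed number give log2(intensity + 1) minus the mean of that gene over the 5 arrays, with genes coloured and ruled off by role. Most sterol genes are palest or blue on both ESC arrays and on the 4n 2i MEF array and red on the 2n 2i and control MEF arrays, with Hsd17b7 and Sc5d the widest in range.

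The arrays fell into a common order for many of these genes. On the 4n MEF array 22 of 29 genes had the lowest value of the MEF arrays, against 43.4% of 11855 genes past the floor, and 2 had the highest value, against 27.7%. At least 2 MEF arrays held identical values for 4 of 29 genes, against 33.3% of all genes. A gene tied on the 4n array counts as neither lowest nor highest, which lowers the shares of all genes. Both ESC arrays lay below every MEF array for 16 of 29 genes, against 36.2% of all genes, and above every MEF array for 2, Pmvk and Ebp, against 41.6%. For 13 of 29 genes the 4n array lay below the other MEF arrays yet above both ESC arrays, a position held by 15.5% of all genes. No margin was required, and some gaps were narrow, as for Scd1 with 7074 units in 4n MEFs and 7025 in 2i ESCs.

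Promoter sequences are shown for Mvk, Idi1, Hsd17b7, Sc5d and Elovl6, which were among the widest differences of their group in a comparison. Hmgcs1 is also shown. Its values did not stand out, and its window alone held the sterol element letters searched for. SREBPs act on promoters of synthesis genes together with the factor NF-Y, which binds the CCAAT box, and Sp1, which binds the GC box. RefSeq windows (GRCm38.p6) of 250 bases before to 50 after a start were found for 23 of the 30 genes. Windows of Fdps, Fdft1, Sqle, Stard4, Scd1, Scd2 and Fads1 were not used here. The letters CCAAT stood on either strand in a window of 19 of 23 genes (82.6%), against 43.0% of 9484 genes past the floor that have a window, and were missing from those of Acat2, Elovl6, Acaca and Fads2. Matches were counted whether or not they overlapped another motif. The letters GGGCGG were found in 19 of 23 (82.6%), against 70.6%, and the E-box letters CACGTG in 4 of 23 (17.4%), against 12.1%. The letters TCACNCCAC, a strict form of the sterol regulatory element, were in 1 of 23 windows, that of Hmgcs1, against 1.40%. SREBP sites vary in sequence, and a window without these letters says nothing about binding. Below, the 250 bases before the start are printed from 5′ to 3′ along the gene's strand, with capitals for the CCAAT box (read as ATTGG on the other strand) and the sterol element. Hmgcs1 is at chr13:119690101-119690350 (plus strand), Mvk at chr5:114444019-114444268 (plus strand), Idi1 at chr13:8885356-8885605 (plus strand), Hsd17b7 at chr1:169969206-169969455 (minus strand), Sc5d at chr9:42264301-42264550 (minus strand) and Elovl6 at chr3:129532136-129532385 (plus strand).
Hmgcs1: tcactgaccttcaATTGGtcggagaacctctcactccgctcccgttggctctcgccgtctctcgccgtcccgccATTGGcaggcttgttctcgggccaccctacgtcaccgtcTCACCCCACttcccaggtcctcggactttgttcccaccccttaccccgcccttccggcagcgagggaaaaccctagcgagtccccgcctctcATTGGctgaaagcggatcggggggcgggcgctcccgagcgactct
Mvk: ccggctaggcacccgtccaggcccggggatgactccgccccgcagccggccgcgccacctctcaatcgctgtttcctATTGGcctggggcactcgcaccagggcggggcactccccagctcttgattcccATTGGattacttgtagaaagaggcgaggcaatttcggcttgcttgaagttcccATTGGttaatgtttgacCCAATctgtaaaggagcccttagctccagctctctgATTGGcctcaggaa
Idi1: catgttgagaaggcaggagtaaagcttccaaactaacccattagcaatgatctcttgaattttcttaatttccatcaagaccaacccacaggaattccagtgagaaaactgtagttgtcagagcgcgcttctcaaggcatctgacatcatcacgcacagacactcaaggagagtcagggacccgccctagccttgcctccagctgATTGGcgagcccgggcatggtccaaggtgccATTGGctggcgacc
Hsd17b7: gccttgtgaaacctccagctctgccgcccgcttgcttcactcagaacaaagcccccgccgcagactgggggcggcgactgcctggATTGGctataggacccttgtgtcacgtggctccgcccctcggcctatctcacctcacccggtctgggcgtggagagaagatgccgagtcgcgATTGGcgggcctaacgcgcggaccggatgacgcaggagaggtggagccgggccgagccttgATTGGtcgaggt
Sc5d: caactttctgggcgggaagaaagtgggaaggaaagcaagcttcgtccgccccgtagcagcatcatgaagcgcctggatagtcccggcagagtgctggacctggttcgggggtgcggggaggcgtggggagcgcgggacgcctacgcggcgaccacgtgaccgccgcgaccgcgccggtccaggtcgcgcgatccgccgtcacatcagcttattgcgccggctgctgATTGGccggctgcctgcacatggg
Elovl6: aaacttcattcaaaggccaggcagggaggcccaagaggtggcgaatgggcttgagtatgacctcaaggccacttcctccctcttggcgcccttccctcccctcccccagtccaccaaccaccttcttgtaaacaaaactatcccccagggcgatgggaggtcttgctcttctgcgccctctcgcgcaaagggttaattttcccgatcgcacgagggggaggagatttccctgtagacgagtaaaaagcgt
Mvk holds 5 CCAAT boxes in these bases, Hmgcs1 and Hsd17b7 hold 3 each, Idi1 holds 2 and Sc5d 1. Elovl6, the fatty acid gene that differed most between the 4n and the other MEF arrays, holds neither kind of match in this stretch.

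On the 4n MEF array the synthesis genes were lower as a group than on the 2n and control MEF arrays, mostly by less than 2-fold. Compared with control MEFs, 22 of 29 were lower (51.2% of 10374 genes were), 7 higher (36.1%) and none identical (1322 of the 10374 genes). The median log2 difference was -0.32 beside -0.01 over all genes. Compared with 2n 2i MEFs, 25 were lower (54.7% of 10306 genes), 2 higher (33.2%) and 2 identical (1246 of the 10306 genes), with a median of -0.39 beside -0.04. At least 2-fold lower were 2 of 29 in each comparison, Hsd17b7 and Elovl6 (3.41% of all genes against control MEFs and 2.36% against 2n 2i MEFs), and none was 2-fold higher (5.22% and 3.33%). A smaller threshold, at which the higher value exceeds the lower by 25%, was chosen after the data were seen. It counted 15 lower and 2 higher (Tm7sf2 and Fads2) against control MEFs, where 23.2% and 16.3% of all genes passed it. Against 2n 2i MEFs it counted 17 lower and none higher, beside 25.2% and 13.3%. These comparisons share the 4n array, so they are not separate evidence. Under quantile normalization 10 genes rather than 15 were lower by this margin against control MEFs, and Elovl6 no longer passed 2-fold there.

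Of the 9 macrophage markers that reached the floor on the 4n array, 7 lay under it on both other MEF arrays. The 2 past it on every MEF array were Cd68 and Lyz2. Cd68, a lysosomal protein, had 4217 units in 4n, 347 in 2n and 444 in control MEFs. Lyz2, lysozyme of myeloid cells, had 5913 units on the 4n array, 429 on the 2n array, with 689 on the control array. Fibroblast markers summed to 87928, 72686 and 67412 units on the 4n, 2n and control arrays, and 12 of 12 were past the floor on each. Of 9 measured adipocyte markers 5, 4 and 2 were past the floor on the 4n, 2n and control MEF arrays, with summed intensities of 3960, 3268 and 3701, and Adipoq, Plin1, Lep and Cidec, which mark fat cells, were under it on every array. Other members differed in opposite directions. Cd36, Fabp4 and Cebpa had 325, 427 and 465 units on the 4n array, against 41, 129 and 170 on the control array, all 3 under its floor. Pparg had 595 units on the 4n array, against 1207 on the control array. Whether macrophage RNA or the adipocyte markers have a part in the lower synthesis genes was not tested. In bulk RNA, fewer cells of a type and less RNA per cell cannot be told apart.

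**Figure D2:**
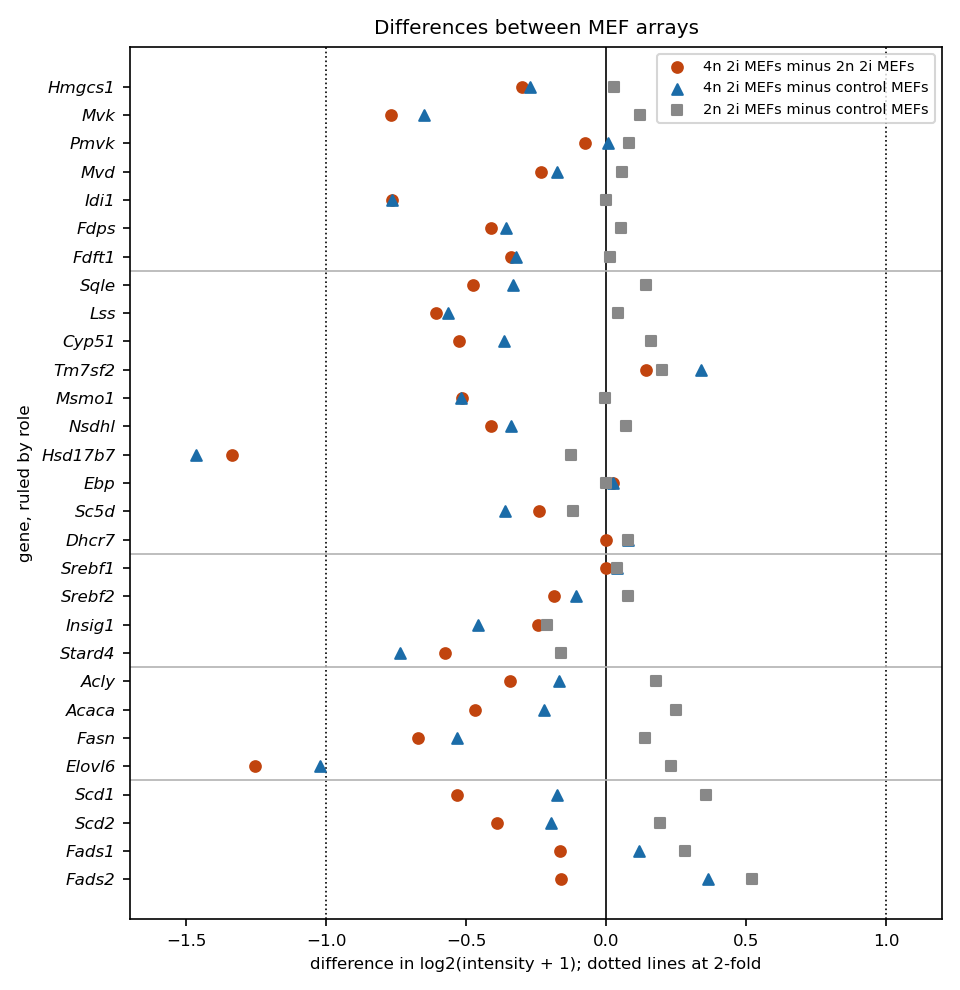
Points give, for each synthesis gene, the difference in log2(intensity + 1) of 4n 2i MEFs minus 2n 2i MEFs (circles), 4n 2i MEFs minus control MEFs (triangles) and 2n 2i MEFs minus control MEFs (squares), with 1 array per group and no error bars. Circles and triangles lie left of 0 for most sterol genes and pass 2-fold for Hsd17b7 and Elovl6, while squares stay between -0.21 and 0.52.

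In the mevalonate pathway all 7 genes were lower on the 4n array than on the 2n array and 6 of 7 lower than on the control array. Idi1, which isomerises the isoprenoid unit, had 1849 intensity units on the 4n array, against 3145 on each of the others. Mvk, mevalonate kinase, had 1437 units on the 4n array, against 2451 on the 2n and 2255 on the control array. These were the widest differences of the pathway, at -0.77 for Idi1 in either comparison and -0.77 and -0.65 for Mvk against 2n and control MEFs. Fdps, which makes farnesyl diphosphate, had 3359 units in 4n, 4464 in 2n and 4302 in control MEFs. Fdft1, squalene synthase, had 4811, 6085 and 6021 units in the same order, and Hmgcs1, which makes HMG-CoA in the cytosol, had 3546, 4367 and 4279. For each of these the 4n array was the low one, and the 2n and control arrays lay within 1.04-fold of each other. Mvd, mevalonate diphosphate decarboxylase, was nearer to the others, at 1187, 1394 and 1342 units. Pmvk, phosphomevalonate kinase, showed no such pattern, at 380.4, 400.3 and 378.4 units, and its difference from control MEFs turned from 0.01 as deposited to -0.05 under quantile normalization. A further probe set of Idi1 gave differences of -0.73 in both comparisons, and a further one of Fdft1 gave -0.17 against control and -0.19 against 2n MEFs.

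From squalene to cholesterol, 7 of 10 genes were lower on the 4n array in both comparisons, and Tm7sf2, Ebp and Dhcr7 were not. Hsd17b7, the ketosteroid reductase that works with Nsdhl on the C4 carbon of sterols, stood out at 1423 units on the 4n array, against 3597 on the 2n and 3928 on the control array. That is 2.53-fold lower than in 2n MEFs and 2.76-fold lower than in control MEFs, while 2n and control MEFs were 1.09-fold apart. Lss, which cyclises squalene epoxide to lanosterol, had 1632 units in 4n MEFs, 2489 in 2n and 2415 in control MEFs. Msmo1, the C4 methyl oxidase, had 3493, 4989 and 5008 units. The 4n array was also the low one for the next 3 genes. Sqle, squalene epoxidase, had 2758 units in 4n, 3838 in 2n and 3477 in control MEFs. Cyp51, the lanosterol demethylase, had 1805, 2596 and 2324 units, and Nsdhl, a sterol dehydrogenase encoded on the X chromosome, had 4213, 5605 and 5336. The order of the 2n and control arrays was not shared by these 6 genes, since Hsd17b7 and Msmo1 were highest on the control array. Sc5d, the sterol desaturase, differed less, at 2566, 3031 and 3293 units. Dhcr7, which completes cholesterol in one branch of the pathway, had 1973 units on both 2i MEF arrays and 1869 in control MEFs. Tm7sf2, a sterol reductase, was higher in 4n MEFs, at 814 units against 738 and 643, and Ebp, the X-linked sterol isomerase, had 970.5 units against 955 on each other MEF array.

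Of the regulators, the transcript of Srebf2 differed by up to 1.14-fold among MEF arrays and that of Srebf1 by up to 1.03-fold. Srebf2, whose product acts mainly on sterol genes, had 3496 units on the 4n, 3977 on the 2n and 3764 on the control array. Srebf1, whose product acts mainly on fatty acid genes, had 999 units on both 2i MEF arrays and 972 in control MEFs. Its identical values are not read as measured equality. Like Srebf2, the other members of this group, Insig1 and Stard4, had their lowest MEF value on the 4n array. Insig1 had 4163 units in 4n MEFs, 4933 in 2n and 5714 in control MEFs. Stard4, which carries cholesterol between membranes, had 482 units in 4n, 719 in 2n and 804 in control MEFs, a log2 difference of -0.58 from 2n and -0.74 from control.

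In fatty acid synthesis all 4 genes were lower on the 4n array than on either other MEF array. Elovl6, which lengthens palmitate to stearate, had 2395 units on the 4n array, 5713 on the 2n array, with 4864 on the control array. It was 2.38-fold lower than in 2n and 2.03-fold lower than in control MEFs. The 4n value also lay below both ESC arrays (4161 units in 2i and 4705 in S ESCs), as it did for Fasn, Acly and Srebf2. Fasn, fatty acid synthase, had 3754 units in 4n, 5980.1 in 2n and 5435 in control MEFs. Acaca, acetyl-CoA carboxylase, had 1233, 1708 and 1437 units, and its further, dimmer probe set gave a wider difference from control MEFs (-0.51 against -0.22). Acly, which makes cytosolic acetyl-CoA from citrate, had 3763, 4779 and 4228 units.

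All 4 desaturases had their highest value on the 2n array. Scd1 and Scd2, which make monounsaturated fatty acids, had 7074 and 10769 units in 4n MEFs, 10222 and 14121 in 2n MEFs and 7990 and 12344 in control MEFs. Fads1 and Fads2 desaturate polyunsaturated fatty acids. Fads1 had 7854 units in 4n, 8803 in 2n and 7237 in control MEFs, and Fads2 had 6463, 7221 and 5027. Against control MEFs Scd1 and Scd2 were lower and Fads1 and Fads2 higher. Scd family members are alike in sequence, and how far the probe sets of Scd1 and Scd2 read each other's RNA was not tested.

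On the 2n MEF array the synthesis genes lay close to control MEFs. Of 29 genes 22 were higher (44.6% of 10180 genes were), 5 lower (34.5%) and 2 identical (2129 of the 10180 genes). The median log2 difference was 0.08 beside 0 over all genes. Identical values lower the shares of all genes that count as higher or lower. None passed 2-fold in either direction (1.47% higher and 0.432% lower over all genes). By the 25% margin 2 were higher, Fads2 (0.52) and Scd1 (0.36), and none lower, beside 9.35% and 5.65% of all genes. The fatty acid genes led: all 4 synthesis genes and all 4 desaturases were higher in 2n MEFs, with medians of 0.20 and 0.32. Lower in 2n MEFs were Insig1 (-0.21), Stard4 (-0.16), Hsd17b7 (-0.13), Sc5d (-0.12) and Msmo1 (-0.01, or 0.01 under quantile normalization).

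**Figure D3:**
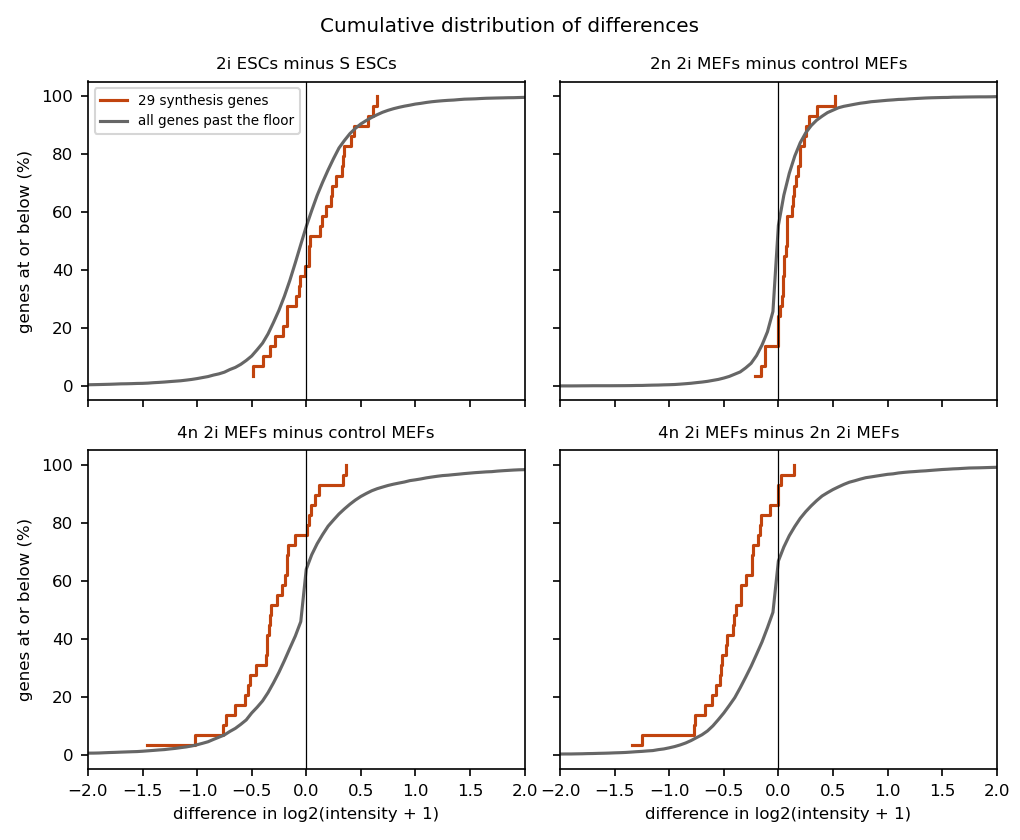
Each panel plots, for 1 pair of arrays, the percentage of genes (y axis) with a difference in log2(intensity + 1) at or below the value on the x axis, for the 29 synthesis genes (stepped line) and for all genes past the floor (smooth line). The stepped line lies left of the smooth one in both 4n panels (medians -0.32 and -0.39 beside -0.01 and -0.04) and right of it over most of the range in the 2n panel (median 0.08 beside 0) and in the ESC panel (median 0.04 beside -0.04).

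Between cell types, Sc5d and Hsd17b7 were the synthesis genes farthest apart, and both were lower in ESCs. The 2 ESC arrays were set against the 3 MEF arrays with limma over all 11855 genes, with Benjamini-Hochberg adjustment. A gene is called here with both an adjusted p below 0.05 and a change of 2-fold or more. By this rule 2 of 29 synthesis genes were called lower in ESCs, Sc5d and Hsd17b7, where 16.2% of all genes were called lower, and none was higher, where 16.6% were (32.9% in either direction). At the same adjusted p without a fold threshold 5 were lower (26.9% of all genes) and 1 higher (31.0%, or 57.9% either way), and at an unadjusted p under 0.05 in limma 8 were lower (29.5%) and 1 higher (34.1%). By any amount 24 were lower (47.5%) and 5 higher (52.5%), with a median log2 difference of -0.38 beside 0.06 over all genes. The counts past the adjusted p thus lay below the background shares, while the signs leaned to lower values in ESCs.

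Sc5d, which places the double bond that precedes the last reduction to cholesterol, had 869 units in 2i ESCs and 686 in S ESCs, against 2566 in 4n 2i MEFs, 3031 in 2n 2i MEFs and 3293 in control MEFs. The groups were far apart, and Sc5d fell by 1.93 on the log2 scale in ESCs (limma adjusted p of 0.00144). Its log2 level was 9.59 ± 0.24 in ESCs (SD, n = 2) and 11.53 ± 0.18 in MEFs (SD, n = 3). That call held under all 12 alternatives. Hsd17b7 had 932 units in 2i ESCs and 701 in S ESCs, against 1423, 3597 and 3928 in 4n, 2n and control MEFs, so the 4n value lay between. It averaged 9.66 ± 0.29 in ESCs (SD, n = 2) and 11.41 ± 0.81 in MEFs (SD, n = 3), a difference of -1.75 with an adjusted p of 0.0411 in limma. This call was lost with no floor (0.0577) and on leaving out any array but the 4n one, and its adjusted p ranged from 0.0038 to 0.246 over 12 alternatives.

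Among the other enzymes from squalene onward, Sqle and Cyp51 fell by 0.70 and 0.72 on the log2 scale in ESCs (adjusted p of 0.0234 and 0.0277 in limma). Sqle had 1979 units in 2i and 2110.2 in S ESCs, and Cyp51 1405 and 1289, all below the MEF values given above. Both genes were under 2-fold, so neither was called, and both lost the adjusted p on leaving out the 2n or the control MEF array. Leaving out 2i or S ESCs keeps 1 ESC array, so only differences are given, and they do not show that the adjusted p held. They were -0.66 and -0.75 for Sqle, and -0.78 and -0.66 for Cyp51. Ebp rose by 0.65 in ESCs, to 1651 units in 2i and 1368 in S ESCs, against 955 to 970.5 in MEFs (limma adjusted p of 0.0091). Its values on the 2n and control MEF arrays are identical, so that p holds little measured MEF spread. Of 4 other sterol synthesis genes past the floor 1 was called higher in ESCs in limma and none lower, and at the adjusted p without a fold threshold 1 was higher and 1 lower. The lower one was Acat1 (-0.865, adjusted p of 0.0201 in limma), the mitochondrial thiolase. The higher one was Lbr, which shares the sterol reductase step with Tm7sf2 and also binds the nuclear lamina, with a difference of 1.72 (3486 and 4197 units in 2i and S ESCs, against 992, 1400 and 1118 in 4n, 2n and control MEFs, adjusted p of 0.00254 in limma). Tm7sf2 itself had a difference of -0.12 (adjusted p of 0.507 in limma), with 715 and 632 units in 2i and S ESCs.

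No gene of the mevalonate pathway, of the SREBP regulators or of fatty acid synthesis passed the adjusted p in limma. Differences in the mevalonate pathway ran from -0.74 (Mvk) to 0.27 (Pmvk), and those of the 4 fatty acid synthesis genes from -0.24 (Acaca) to 0.13 (Elovl6). Srebf2 averaged 11.87 ± 0.05 in ESCs (SD, n = 2) and 11.87 ± 0.09 in MEFs (SD, n = 3). All 4 desaturases were lower in ESCs, and Fads1 passed, at 4791 units in 2i and 3529 in S ESCs, against 7854, 8803 and 7237 in 4n, 2n and control MEFs (log2 difference -0.95, adjusted p of 0.011 in limma). Fads1 was under 2-fold, so it was not called, and its adjusted p did not stay under 0.05 in every alternative. Its difference ran from -1.17 to -0.73 over 12 alternatives, and was smallest without the S ESC array.

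The 4n array bore on these counts. Without it 14 of 29 genes were lower in ESCs at the adjusted p, beside 28.6% of all genes. The added ones were Hmgcs1, Mvk, Idi1, Fdps, Lss, Msmo1, Nsdhl, Stard4 and Scd2, and Idi1 then rests on identical MEF values. Leaving out any other array gave 2 or 3 lower. No deposited value was identical between any ESC and any MEF array, and whether values of each cell type were computed apart was not tested. The spread used by limma is that between conditions within a cell type, since the labels do not say that arrays are replicates of a culture.

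**Figure D4:**
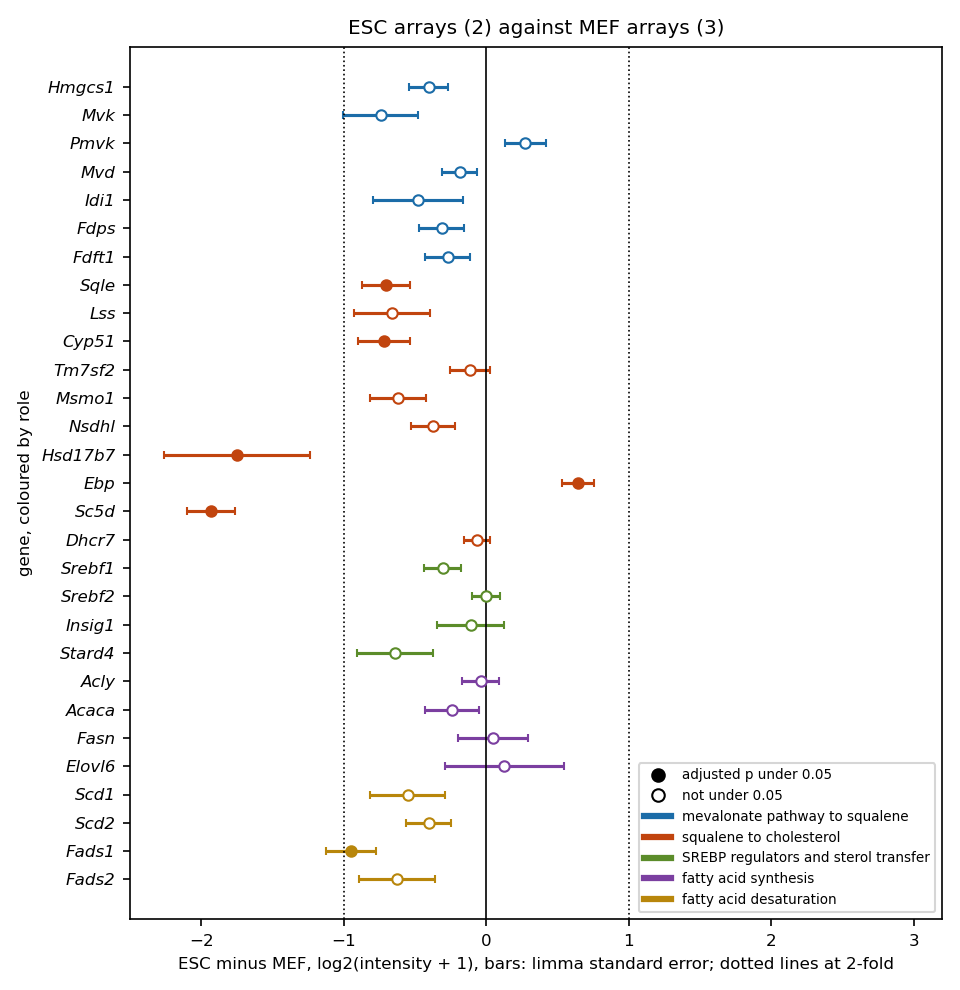
Points give the ESC minus MEF difference in log2(intensity + 1) of each synthesis gene over 2 ESC and 3 MEF arrays, bars the limma standard error, and filled points an adjusted p under 0.05. Sc5d (-1.93) and Hsd17b7 (-1.75) lie beyond 2-fold on the left, and Ebp (0.65) is the filled point on the right.

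The ESC arrays differed from each other by less than 2-fold in every synthesis gene, where 2.78% of 10493 genes had a 2-fold higher and 2.54% a 2-fold lower value in 2i ESCs. By any amount 17 were higher in 2i ESCs (45.0% of all genes) and 12 lower (54.9%), with a median of 0.04 beside -0.04. By the 25% margin 8 were higher and 4 lower, beside 16.8% and 20.0%. The branches of the list went apart. All 4 desaturases were higher in 2i ESCs, with Fads2 at 5007 units in 2i and 3193 in S ESCs, Scd1 at 7025 against 4590.5, and Scd2 at 10069 against 8630.

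The differences were 0.65 for Fads2, 0.61 for Scd1, 0.44 for Fads1 and 0.22 for Scd2. Conversely all 4 fatty acid synthesis genes were lower in 2i ESCs, from -0.01 (Acly) to -0.33 (Acaca), although Acly turned to 0.0043 under quantile normalization. Fasn had 4644 units in 2i and 5664 in S ESCs. The other probe set of Acaca gave -0.58. Insig1 had 5519 units in 2i ESCs, against 3731 in S ESCs, the widest difference among the regulators (0.56), and Srebf1 had 903 against 709. In the sterol branches Lss (-0.49) and Idi1 (-0.48) were the lowest in 2i ESCs, at 1144 against 1603 units and 1601 against 2239. Pmvk had 407 against 535 units. On the other side Hsd17b7 (0.41) and Sc5d (0.34) were the highest of the sterol genes. Of the X-linked genes, Ebp had a difference of 0.27 and Nsdhl of -0.05.

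Related pathways were read from lists of other genes, whose counts stand beside the same shares of all genes as above: 16.6% called higher and 16.2% called lower in ESCs, and 5.22% at least 2-fold higher and 3.41% lower in 4n than in control MEFs. No test compared a list with the rest. Among 8 measured genes of sterol uptake and lysosomal export, 3 were called lower in ESCs in limma and none higher: Vldlr (-1.91), a lipoprotein receptor, Lrp1 (-1.80), an endocytic receptor, and Lipa (-1.72), the lysosomal lipase that frees cholesterol. Vldlr lay near the floor in ESCs, with 240.04 units in 2i ESCs, under the floor of 240.07, and 278 in S ESCs, above it. In the same list 2 of 8 were at least 2-fold higher in 4n than in control MEFs. They were Mylip (1.18), a ubiquitin ligase that marks lipoprotein receptors for degradation, with 1583 against 697 units, and Vldlr (1.10), with 1387 against 647. Both were also higher in 2n than in control MEFs, at 1149 units for Mylip (0.72) and 1033 for Vldlr (0.67). Lrp8, another lipoprotein receptor, was lower (-1.36), with 446 against 1148 units, and had 1336 units in 2n MEFs.

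Genes of sterol efflux, esterification and the LXR pathway showed 3 of 9 past the floor at least 2-fold higher in 4n than in control MEFs and none lower. These were Apoe (3.03), the lipoprotein component, at 7542 against 921 units, Cyp7b1, an oxysterol hydroxylase, at 1005 against 139 (under the floor), and Abca1 (1.59), the cholesterol exporter, at 1161 against 384. In 2n MEFs these genes had 939, 410 and 499 units. Apoe and Abca1 are also active in macrophages, whose markers were raised on the same array, and the part of those cells was not tested. In ESCs against MEFs 1 of 10 was called lower in limma and none higher. It was Ch25h, which makes an oxysterol, under the floor at 66.8 and 75.8 units in 2i and S ESCs, against 404, 590.3 and 532 in 4n, 2n and control MEFs.

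Of 9 genes of SREBP processing and turnover past the floor, Scap was called lower in ESCs in limma (-1.08, adjusted p of 0.00294), with 1314 and 1257 units in 2i and S ESCs against 2414, 2767 and 3019 in 4n, 2n and control MEFs. None of the 9 passed 2-fold between MEF arrays or between ESC arrays. Insig2 had 916 units in 4n MEFs, 1142 in 2n MEFs and 1591 in control MEFs. Among 10 genes of isoprenoid side branches, 7 were lower and 1 higher in 4n than in control MEFs, none by 2-fold. Over all genes 51.2% were lower and 36.1% higher by any amount. Nus1 (-0.92), a subunit of the enzyme that makes dolichol, was the farthest, at 1561 against 2952 units. In ESCs against MEFs Fntb (1.04), a farnesyltransferase subunit, was called higher and Dolk, dolichol kinase, lower in limma. Dolk was under the floor on both ESC arrays (141 and 135 units in 2i and S ESCs) and had 391 units on every MEF array.

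Of 21 other genes of fatty acid synthesis and supply past the floor, 4 were called higher and 5 lower in ESCs in limma, beside 16.6% and 16.2% of all genes. The 4 called higher were under the floor on every MEF array, so they entered only through the ESC arrays. They include Elovl2, an elongase of polyunsaturated fatty acids, with 694 and 429 units in 2i and S ESCs, against 52.0 on every MEF array. Among those called lower, Fads3, a desaturase relative, was under the floor on both ESC arrays (143 and 237 units in 2i and S ESCs), against 4233, 6783 and 5555 units in 4n, 2n and control MEFs. Elovl1, an elongase of very long chains, differed by -2.33 and had identical values on every MEF array. Acsl5, which activates fatty acids, had 213 and 358 units in 2i and S ESCs, the first under the floor, against 842, 1287 and 1158 in 4n, 2n and control MEFs. On the 4n array 10 of 17 were lower than on the control array and 4 higher, beside 51.2% and 36.1% of all genes, and 1 was higher by 2-fold, Hacd2 (1.23). Hacd2 was also higher in 2n than in control MEFs (0.61). In 2i against S ESCs 1 of 20 passed 2-fold, where 2.78% of all genes were 2-fold higher and 2.54% lower. That count is too small to set apart from these shares. The gene was Me1 (1.58), malic enzyme, which supplies NADPH for synthesis, at 2493 against 832 units.

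In glycerolipid assembly and fatty acid oxidation none of 16 and of 15 genes passed 2-fold on the 4n or the 2n array against control MEFs, counts too small to set apart from 5.22% and 3.41% of all genes on the 4n array. By the 25% margin 1 of 16 and 3 of 15 were higher and 2 of 16 and 3 of 15 lower on the 4n array, beside 16.3% and 23.2% of all genes. In ESCs against MEFs each list had 1 gene called higher and 1 lower in limma. These were Chka (1.06), choline kinase, and Pcyt1a (-1.13), an enzyme of phosphatidylcholine synthesis, in the first list, and Ehhadh, a peroxisomal enzyme under the floor on every MEF array, and Ppard (-1.16), a nuclear receptor, in the second. Chka had identical values on every MEF array. In 2i against S ESCs 1 of 16 oxidation genes passed 2-fold, a count too small to set apart from 2.78% higher and 2.54% lower over all genes. It was Acaa2 (1.06), the mitochondrial thiolase, at 2206 against 1060 units.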

How the data were processed

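The labels' protocols give a column kit for total RNA of the 5 samples, then fragmentation and biotin labelling for whole-transcript arrays. Linear intensity values of 28853 probe sets were deposited as 1 table. Their background correction, summary over probes and normalization are not given in the sources used here. Arrays have no sequencing depth, and no detection calls were used.

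The deposited intensities were put on the log2(value + 1) scale. Probe sets with 1 gene symbol (21789) were kept, and 21698 of them were matched by Entrez number to RefSeq (GRCm38.p6) for current symbols. The brightest probe set stood for a gene with several. A comparison took the genes whose brighter array was at or over its floor, which is the median over all probe sets with a gene name. Pairs of arrays were compared by difference and a 2-fold threshold, with no test. ESCs were compared with MEFs with limma (lmFit and eBayes, Benjamini-Hochberg adjustment over all genes, no covariate), after a run on simulated data. The members and lists were chosen with earlier results of these data known. All listed members are named or counted. Up to 4 genes of each other list per comparison are named, those past the threshold with the largest difference, with Scap and Insig2 in any comparison. Acat1, Nus1 and the single macrophage and adipocyte markers were chosen after their values were seen. List genes without a probe set of 1 gene were not analysed here. Promoter letters were searched on both strands. Alternatives were genes without any floor, the 75th percentile as floor, quantile normalization, the mean of probe sets, a pseudocount of 16, 3-fold, leaving out each array, a trend with a robust prior, leaving out genes with identical MEF values and, added after the data were seen, a margin of 25% between arrays. The tools were limma 3.58.1 in R 4.3.3, and pandas 2.3.3, numpy 2.4.6, matplotlib 3.10.9 and scipy 1.17.1 in Python 3.11.15.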

Additional observations from a re-analysis of the deposited data

How the results depend on the processing

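No paired analysis was possible because each group has 1 array. In the ESC against MEF comparison the adjusted p stayed under 0.05 for Sc5d in all 12 alternatives and for Ebp in the 11 that could be run for it. The count of synthesis genes lower in ESCs at 2-fold went to 1 with no floor, and ran from 1 to 2 on leaving out each MEF array. Without control MEFs it stayed at 2 although Hsd17b7 lost its call (limma adjusted p of 0.089), so the genes counted changed. Without the fold threshold 8 were lower under quantile normalization, between 2 and 14 on leaving out each array, and the count of higher ones was between 1 and 2, or 0 with identical MEF values left out, which removes Ebp. With 1 ESC array left, that array is assumed to vary like the MEF arrays. Small differences that changed sign, none past the adjusted p, were those of Srebf2 under quantile normalization (-0.0105) and of 6 genes on leaving out 1 array. Over the arrays left out, these ran from -0.0485 to 0.0444 for Srebf2 (below 0 without S ESCs or 4n MEFs), -0.1359 to 0.0077 for Dhcr7 (above 0 without S ESCs), -0.3917 to 0.1729 for Insig1 (above 0 without S ESCs or control MEFs), -0.1237 to 0.0488 for Acly (above 0 without 2n MEFs), -0.1526 to 0.1915 for Fasn (below 0 without S ESCs or 4n MEFs) and -0.2527 to 0.3741 for Elovl6 (below 0 without 4n MEFs). Between pairs of arrays, Acly (2i against S ESCs), Msmo1 (2n against control MEFs) and Pmvk (4n against control MEFs) changed sign under quantile normalization, to 0.0043, 0.012 and -0.0523. For pairs of arrays, 3-fold left 0 genes lower in 4n MEFs against control and 0 against 2n MEFs, and quantile normalization left 1 at 2-fold against control. The 25% margin, added after the data were seen, gave 15 lower and 2 higher in 4n against control MEFs, 17 lower in 4n against 2n MEFs, 2 higher in 2n against control MEFs, and 8 higher and 4 lower in 2i against S ESCs. Genes higher by any amount in 4n against 2n MEFs numbered 1 with the floor at the 75th percentile, which leaves 26 genes, and 4 under quantile normalization. The cause of these changes was not tested beyond the construction of each alternative.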
